A study of Mus musculus with 123 samples.

Results

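The genes described here are 8 chloride channels and transporters, chosen by symbol from the 24134 genes of the expression tables: Ano1, Ano3, Best1, Slc12a2, Slc12a5, Clcn2, Clcn3 and Clcn6. They were followed in dorsal root ganglion (DRG) neurons of 2-month-old mice whose right sciatic nerve was cut (sciatic nerve transection, SNT), and the contralateral DRGs of the same mice served as the control side. Which of the picked neurons had an axon in the cut nerve is not marked. At day 3 after axotomy the mice were F1 offspring of a C57BL/6 mother and a CAST/Eij father, female by the paper's methods. They gave 41 SNT-side and 18 control-side cells after the removal of outliers, and 3 libraries of pooled neurons per side. At day 7, C57BL/6 mice of both sexes gave 33 SNT-side cells (16 female, 17 male) and 14 control-side cells (7 female, 7 male). The days also differ in the sex of the mice, read length and ganglia, so their values are set side by side and not compared. No animal is named for a cell, so the cells of 1 side and day are 1 sample and carry no test. The 3 pooled libraries of a side are parts of 1 pool, so their p-values cover technical spread only and compare 2 pools.

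Mature DRG neurons hold more chloride than most central neurons, so that opening a chloride channel depolarizes them. Slc12a2 (NKCC1) carries chloride into the cell and Slc12a5 (KCC2) carries it out. Ano1 (TMEM16A), Best1 and Clcn2 form chloride channels in the plasma membrane, the first 2 opened by calcium and the last by hyperpolarization. Ano3 (TMEM16C) belongs to the same family as Ano1 but is known in DRG neurons as a partner of a sodium-activated potassium channel. Clcn3 and Clcn6 are exchangers of chloride and protons in endosomes.

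Between the pools Ano1 was called higher, and Ano3 and Slc12a2 lower, on the SNT side. Ano1 was at most 15.1 counts per 1e6 counts of the library (CPM) in control-side pools and at least 43.9 CPM in SNT-side pools. Ano3 was the member with the largest fall, from a mean of 440.7 to 56.6 CPM, and Slc12a2 fell from 85.8 to 27.04 CPM. Of the 7 members that passed a mean of 1 CPM, 1 was called higher, 2 lower and 4 not called, where a call needs a change beyond 2-fold and, in edgeR's quasi-likelihood test, an adjusted p (Benjamini-Hochberg) below 0.05. Of all 13509 genes tested, 16% were called, 8.85% higher and 7.1% lower on the SNT side. The libraries of the sides did not overlap for 5 members (Ano1, Clcn2, Ano3, Slc12a2 and Best1), against 38% of all genes, of which 16.7% lay higher and 21.3% lower. The sides follow the names of the table's columns. The identifier line of that table assigns the 6 columns to the opposite sides, which would change the sign of every pooled difference given here. Under the names, the axotomy marker Atf3 lay between 8.25 and 21.5 CPM in the control pools and between 1372 and 1619 CPM in the SNT pools.

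**Figure D1:**
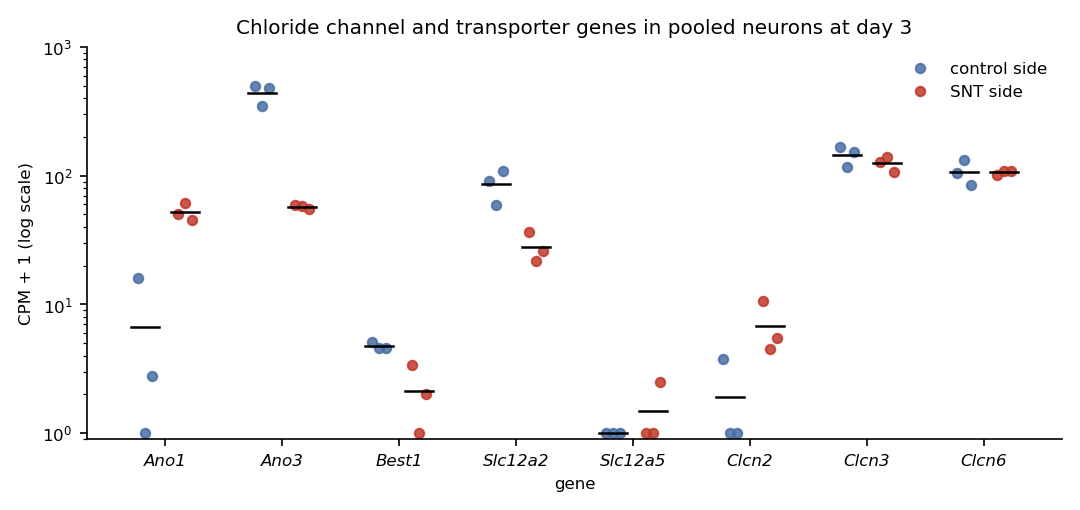
CPM + 1 on a log scale in each pooled library at day 3, with 3 libraries per side (points) and their mean (bar), for the 8 genes. The 3 SNT-side libraries of Ano1 lay above every control-side library and those of Ano3 and Slc12a2 lay below, while the sides of Clcn3 and Clcn6 overlapped.

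Cell types and injury markers frame these values. In cells, Atf3 was at or above 100 CPM in 30 of 41 SNT-side cells at day 3, in 12 of 33 at day 7 and in none of the 18 and 14 control-side cells. The neuron list (Tubb3, Snap25 and 4 more) summed to at least 6482 CPM in every kept cell. The 10 genes of the glial list summed to at least 507 CPM in every kept cell. At day 7 Apoe reached 10 CPM in 12 of 14 control-side and 22 of 33 SNT-side cells, and Fabp7 in 10 and 14. The sum alone thus does not show glial RNA in each cell. Total counts of kept cells lay between 261351 and 1849130 and those of pools between 563462 and 2003817. In pools, fewer cells of a type and less RNA per cell cannot be told apart. Markers of nonpeptidergic nociceptors (NP: Mrgprd, P2rx3, Lpar3 and Scn11a) were called lower for 4 of 4 genes, and their sum went from between 2613 and 2662 CPM to between 435 and 441 CPM. Of the markers of large myelinated (LM) neurons, Nefh and Ntrk3 were called higher. Of the 4 markers each of peptidergic nociceptors (PEP) and of C-fibre low-threshold mechanoreceptors (C-LTMR), 2 and 4 were called lower. Immune genes summed to at most 8.98 CPM in any pool, and Csf1r was the 1 called, higher, on 23 counts against 0.

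The starts of Ano1 and Ano3, the members with the largest called rise and fall, differ in base composition. They are shown as the 250 bases before each RefSeq start of the 2 genes. The bases are those of the sense strand of build GRCm38.p6, with each CG dinucleotide in capitals. Each window lies inside the span given below for its gene, and not before the 5' end of that span. The tables do not say which start was used.
Ano1, chr7:144738574-144738823, minus strand: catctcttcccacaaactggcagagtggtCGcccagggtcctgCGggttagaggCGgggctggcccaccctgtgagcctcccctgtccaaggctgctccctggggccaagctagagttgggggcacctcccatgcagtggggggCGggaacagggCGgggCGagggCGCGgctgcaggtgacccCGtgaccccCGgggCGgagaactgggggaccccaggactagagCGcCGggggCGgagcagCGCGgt
Ano3, chr2:110840060-110840309, minus strand: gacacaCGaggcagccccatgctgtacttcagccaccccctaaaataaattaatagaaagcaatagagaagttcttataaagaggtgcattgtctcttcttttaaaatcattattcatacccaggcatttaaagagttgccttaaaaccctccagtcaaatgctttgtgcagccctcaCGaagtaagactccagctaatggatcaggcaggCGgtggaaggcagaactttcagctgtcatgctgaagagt
Ano3, chr2:110950245-110950494, minus strand: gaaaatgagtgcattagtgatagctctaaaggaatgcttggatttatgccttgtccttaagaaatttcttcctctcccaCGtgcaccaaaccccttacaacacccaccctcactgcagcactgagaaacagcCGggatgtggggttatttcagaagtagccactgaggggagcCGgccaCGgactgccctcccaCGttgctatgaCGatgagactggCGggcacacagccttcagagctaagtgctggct
The Ano1 window held 16 CG dinucleotides at 72.0% G+C, and the Ano3 windows held 3 and 7 at 43.6% and 52.4%, with medians of 6 and 52.4% over 32851 promoters. Neither the AP-1 motif TGACTCA nor the CRE motif TGACGTCA, both bound by injury-induced factors, was found on either strand of these 3 windows. The motifs stand in 4.46% and 1.55% of all promoters of this length, and the absence of these letters says nothing of the factors. Among the 7 members with a promoter in the RefSeq table, 1 of 10 starts held an AP-1 motif, in Slc12a5 at 162 bases before the start.

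Ano1 (chr7:144588549-144751974, minus strand, 25 exons in GRCm38) encodes the calcium-activated chloride channel that also opens with heat in nociceptors. It read 15.1, 0 and 1.77 CPM in the control pools and 49.6, 60.9 and 43.9 CPM in the SNT pools. Every SNT-side pool lay above every control-side pool. The log2 change was 3.3 (SE 0.47, adjusted p = 5.9e-07). It rested on 12 control-side and 241 SNT-side counts, and without control library 1, which held most of the former, it was 6.10. At day 3 single control-side cells had a mean of 1.83 ± 6.31 CPM (SD, n = 18), a median of 0 and a highest value of 26.3 CPM. SNT-side cells had a mean of 14.1 ± 33.03 CPM (SD, n = 41), a median of 0.652 and a highest value of 147 CPM, and 6 of them exceeded the highest control-side cell. So the higher mean came from a minority of cells. Ano1 reached 10 CPM in 1 of 18 control-side cells (5.56%, exact 95% interval 0.141% to 27.3%) and in 9 of 41 SNT-side cells (21.95%, 10.6% to 37.6%), and the intervals overlapped.

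At day 7, in mice of another strain, Ano1 was again at 0 in most control-side cells. Control-side cells had a mean of 3.61 ± 10.1 CPM (SD, n = 14) and a highest value of 37.3 CPM. SNT-side cells had a mean of 25.4 ± 38.9 CPM (SD, n = 33) and a highest value of 121 CPM, with 9 cells above every control-side cell. The share of cells at 10 CPM was 2 of 14 (14.3%, 1.78% to 42.8%) on the control side and 13 of 33 (39.4%, 22.9% to 57.9%) on the SNT side. The log2 ratio of mean CPM + 1 was 2.41 at day 3 and 2.52 at day 7, with 3.355 in female and 2.03 in male cells. With the median over cells in place of the mean it was 0.72 at day 3 and 1.32 at day 7. The medians were near the floor, with 0 and 1.49 CPM on the control and SNT sides at day 7. They were under 10 CPM on both sides, so no fold was read from them. In means, Ano1 was the member past 2-fold upward on both days, beside 5.82% of 9736 genes at day 3 and 4.45% of 9622 genes at day 7.

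The cells with Ano1 were mostly those with markers of LM neurons. All 13 SNT-side cells at 10 CPM of Ano1 at day 7 held Ntrk3, the receptor of neurotrophin-3 in proprioceptors and other large neurons, at between 117 and 408 CPM. None of the 13 had 100 CPM of Calca or P2rx3, markers of peptidergic (PEP) and NP neurons, which 11 and 6 of the 33 cells reached. All 8 cells with at least 100 CPM of Pvalb, a marker of proprioceptors, were among the 13. At day 3, 7 of the 9 SNT-side cells with Ano1 had at least 10 CPM of Ntrk3, and the other 2 had at least 1156 CPM of P2rx3. Over the SNT-side cells the Spearman correlation of Ano1 with Ntrk3 was 0.65 on both days (n = 41 and n = 33), that with Calca -0.63 and -0.58.

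The LM markers Pvalb and, at day 7, Ntrk3 were found more often in SNT-side cells. A difference in the types picked and a change of these RNAs after axotomy cannot be told apart. No control-side cell reached 100 CPM of Pvalb on either day, and the highest held 17.2 CPM. Ntrk3 reached 10 CPM in 7 of 18 control-side and 18 of 41 SNT-side cells at day 3, and in 6 of 14 and 24 of 33 cells at day 7. Among the cells with Ntrk3, Ano1 reached 10 CPM in 1 of 7 control-side and 7 of 18 SNT-side cells at day 3, and in 2 of 6 and 13 of 24 at day 7. Ano1 was found in cells with and without much Atf3. Of the 9 day-3 SNT-side cells with Ano1, 8 had at least 100 CPM of Atf3, as did 30 of all 41. Of the 13 day-7 cells, 7 did, as did 12 of all 33, and the second to the fifth highest in Ano1 held between 0 and 13.9 CPM of Atf3 with between 614 and 885 CPM of Pvalb. The part of cell type in the Ano1 difference was not tested.

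**Figure D2:**
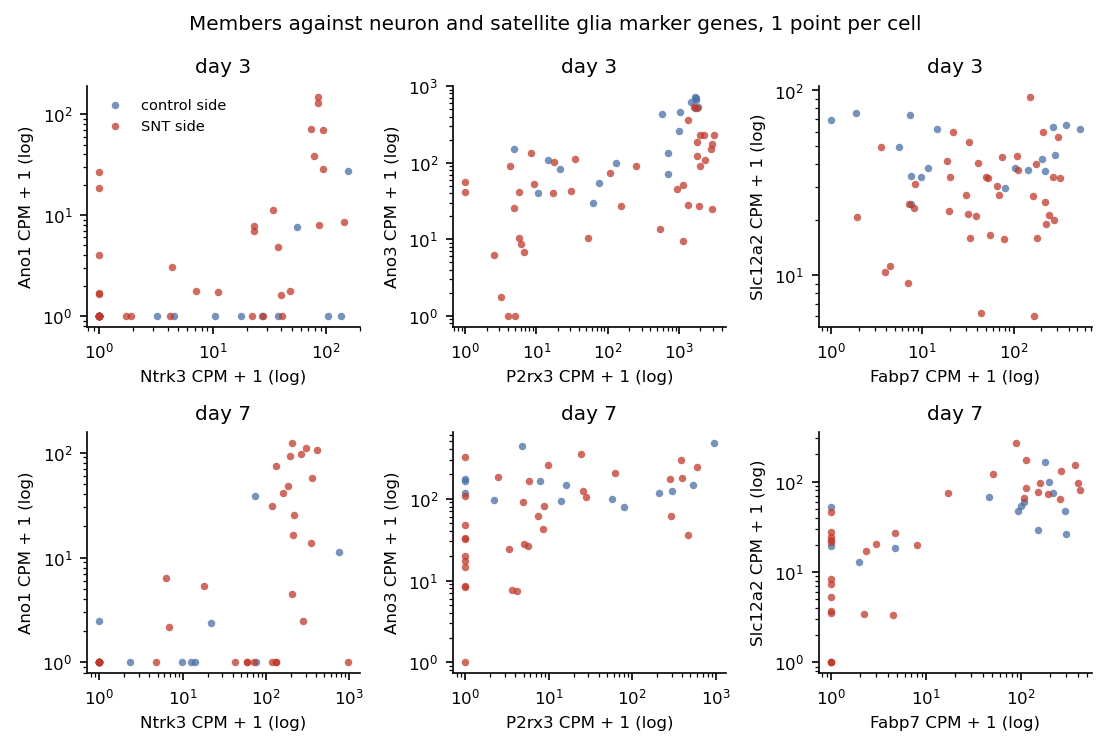
Each point is 1 cell, with CPM + 1 on log axes, for Ano1 against Ntrk3, Ano3 against P2rx3 and Slc12a2 against Fabp7 at day 3 (upper) and day 7 (lower), control side in blue and SNT side in red. High Ano1 lay at high Ntrk3, the highest Ano3 of day 3 lay at high P2rx3, and most high SNT-side Slc12a2 at day 7 lay at high Fabp7.

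Ano3 (chr2:110655201-110950923, minus strand, 27 exons) read 495, 344 and 483 CPM in the control pools and 58.6, 57.4 and 53.9 CPM in the SNT pools. The sides were far apart and the SNT-side libraries close together. The log2 change was -2.80 (SE 0.17, adjusted p = 1.5e-16), and it lay between -2.96 and -2.71 under 14 alternatives. At day 3 all 18 control-side cells held at least 28.7 CPM (median 203, highest 720, mean 314 ± 259 SD). SNT-side cells ranged from 0 to 525 CPM (median 50.8, mean 99.2 ± 125 SD, n = 41), and 15 of them lay below every control-side cell. The log2 ratio of means was -1.65, a fall past 2-fold that 6.07% of genes showed in this comparison. In either direction 2 of 5 members at 10 CPM were past 2-fold, beside 11.9% of genes.

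At day 3 Ano3 was highest in cells with Mrgprd, a receptor that marks NP neurons. All 6 control-side cells with at least 1000 CPM of Mrgprd held at least 300 CPM of Ano3, and so did the 3 such SNT-side cells. The other 2 control-side cells at 300 CPM of Ano3, with 454 and 433 CPM, held 4165 and 4804 CPM of Th, a marker of C-LTMR neurons. The 3 SNT-side cells were the highest in Ano3 of their side, at 525, 510 and 365 CPM, and held 4.68, 22.9 and 22.5 CPM of Atf3, levels that control-side cells also had. The correlation of Ano3 with P2rx3, an ATP receptor of NP neurons, was 0.81 over control-side cells (n = 18) and 0.60 over SNT-side cells (n = 41). At day 7 it was -0.08 (n = 14) and 0.57 (n = 33), and of the 4 cells at 300 CPM of Ano3, 2 on each side, 1 control-side cell held Mrgprd and the other 3 had none. Of the day-3 cells with at least 100 CPM of P2rx3, 10 of 12 control-side and 11 of 22 SNT-side cells held at least 100 CPM of Ano3. At day 7 it was 4 of 4 control-side and 4 of 6 SNT-side cells. The levels in these counts were chosen after the values were seen, and the part of NP cells in the pooled fall was not tested.

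At day 7 the difference in Ano3 was smaller than 2-fold in means and larger in medians. Control-side cells held between 79.2 and 471 CPM (median 134, mean 174 ± 124 SD, n = 14) and SNT-side cells between 0 and 349 CPM (median 60.1, mean 101 ± 102 SD, n = 33). On the SNT side 18 of 33 cells lay below every control-side cell. The log2 ratio of means was -0.78, that of medians -1.15. It was -1.25 in female and -0.57 in male cells, and a test of the difference between the sexes cannot be made with 1 sample each. Female cells alone put 2 members past 2-fold (13.4% of genes in that comparison), male cells 1 (8.65%) and all cells 1 of 6 (7.66%), while 3.2% of genes were past 2-fold downward in all cells.

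Ano1 at 10 CPM and Ano3 at 100 CPM, which are unlike levels, were found in different SNT-side cells at day 7. The 13 cells with at least 10 CPM of Ano1 held between 0 and 80.2 CPM of Ano3. None of them had 100 CPM of Ano3, which 13 other cells had. The correlation of the 2 genes over SNT-side cells of day 7 was -0.78 (n = 33). Over day-3 SNT-side cells it was -0.34 (n = 41), and over control-side cells -0.08 at day 3 (n = 18) and 0.04 at day 7 (n = 14). None of the 12 day-7 cells with at least 100 CPM of Atf3 had 100 CPM of Ano3, and the correlation of Ano3 with Atf3 was -0.67. At day 3, 9 of 30 cells with that much Atf3 had 100 CPM of Ano3, and the correlation was -0.15. All these correlations are over cells of 1 side, which share the scaling to total counts.

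**Figure D3:**
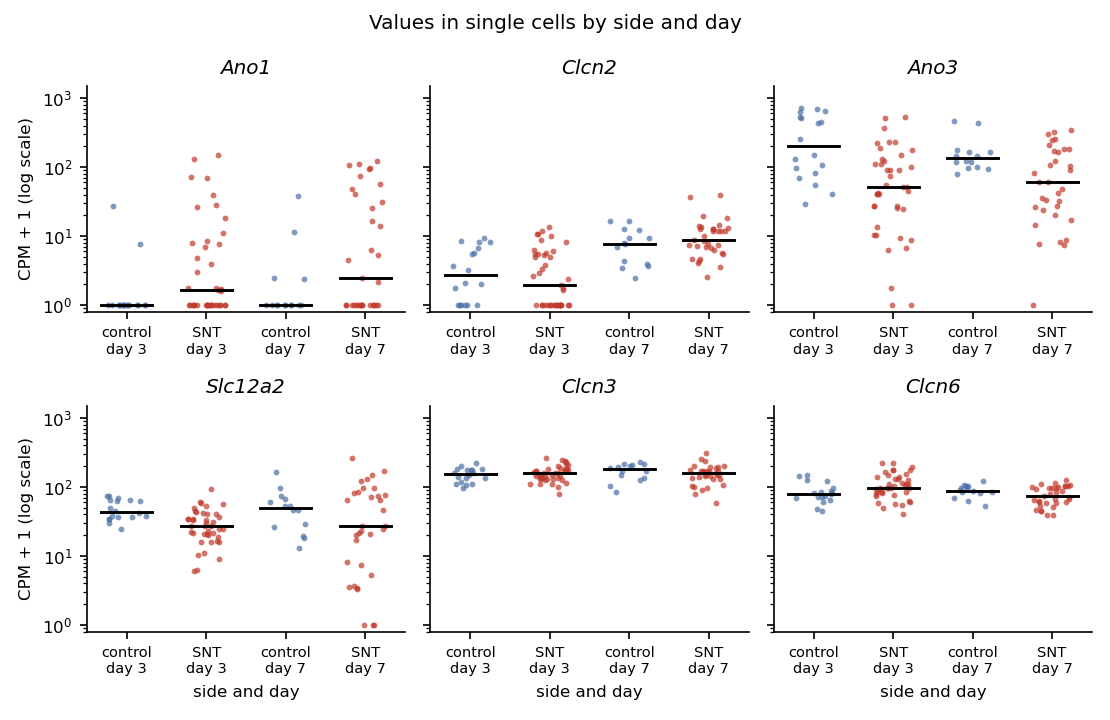
CPM + 1 on a log scale in every kept cell (points) by side and day, with the median (bar), for 6 of the 8 genes. Ano1 was at 0 in most control-side cells and reached 147 CPM on the SNT side, Ano3 spread downward on the SNT side, and Clcn3 and Clcn6 were above 0 in every cell.

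Slc12a2 (chr18:57878678-57946821, plus strand, 27 exons), the importer that sets the high chloride of DRG neurons, read 90.8, 58.4 and 108 CPM in the control pools and 35.3, 20.9 and 24.95 CPM in the SNT pools. The sides did not overlap, and the log2 change was -1.47 (SE 0.27, adjusted p = 3.9e-05). Glial genes moved with it. Among the 10 glial markers, Fabp7, Kcnj10 and Apoe were called lower and Prx higher, and the sum of all 10 went from between 12547 and 15229 CPM to between 6138 and 6939 CPM. Glia of the ganglion also express Slc12a2, and their part in the pooled fall was not tested.

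In single cells at day 3 the difference in Slc12a2 was smaller. Control-side cells held between 23.4 and 74.2 CPM (median 42.7, mean 47.9 ± 16.3 SD, n = 18) and SNT-side cells between 5.04 and 91.3 CPM (median 26.1, mean 29.6 ± 17.2 SD, n = 41). On the SNT side 18 of 41 cells lay below every control-side cell and 1 above. The log2 ratio of means was -0.68, and the sum of glial genes had medians of 3770 and 3805 CPM on the 2 sides. The correlation of Slc12a2 with Fabp7, a satellite glia gene, was -0.08 over control-side cells and 0.15 over SNT-side cells.

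At day 7 the means of Slc12a2 differed by far less than the SD of either side, and the medians by more. The mean was 54.0 ± 39.5 CPM (SD, n = 14) on the control side and 54.1 ± 60.7 CPM (SD, n = 33) on the SNT side, with medians of 48.9 and 26.1 CPM. The log2 ratio of means was -0.58 in female and 0.21 in male cells. The SNT side held 10 cells below and 2 above the control-side range of 11.9 to 163 CPM. On that side high Slc12a2 went with glial RNA and also with markers of neuron type. All 11 SNT-side cells with at least 100 CPM of Fabp7 had at least 50 CPM of Slc12a2, against 3 of the 22 others, at levels that were chosen after the values were seen. The correlation of Slc12a2 was 0.77 with Fabp7 and 0.69 with Apoe on the SNT side (n = 33), and 0.38 and 0.46 on the control side (n = 14). With Calca, P2rx3 and Atf3 it was 0.60, 0.51 and -0.55 on the SNT side, and 0.16, -0.03 and 0.27 on the control side. Of the 11 SNT-side cells with at least 100 CPM of Calca, 9 had at least 50 CPM of Slc12a2. Of the 22 others, 17 did not. These levels too were chosen afterwards. The parts of glial RNA, neuron type and injury were not tested. The sum of the glial list had a median of 5185 CPM in control-side and 1503 CPM in SNT-side cells of day 7. Nerve cells and attached glia cannot be told apart within a picked cell.

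The other transporter, Slc12a5 (chr2:164960802-164999731, plus strand, 26 exons), which lowers chloride in mature central neurons, was at or near 0 in every group. The control pools held 0 counts and the SNT pools 3, all in 1 library. In cells it had 0 counts in all 18 control-side cells of day 3, which allows a share of cells with a count of up to 16.7% by the limit of 3 cells and 18.5% by the exact interval, and 14 counts in 4 of 41 SNT-side cells. At day 7 it had 1 count on the control side (0.0948 CPM over all cells, exact Poisson interval 0.0024 to 0.528) and 10 on the SNT side (0.508 CPM, 0.243 to 0.933). The highest cell of all held 9.75 CPM. At this depth no difference between sides can be read from it, and it was not tested in pools.

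Clcn2 (chr16:20702964-20717746, minus strand, 24 exons), the hyperpolarization-activated channel, read 2.75, 0 and 0 CPM in the control pools and 9.56, 3.482 and 4.49 CPM in the SNT pools. The SNT-side pools were higher, with 29 counts against 2, a ratio of 6.4 with an exact counting interval of 1.62 to 55.4. It was not called (log2 2.67, SE 1.06, adjusted p = 0.060), but was called with limma (1.65), after thinning to equal depth (3.69) and without control library 1 (5.94). Under the rest of the 13 alternatives it was not called, as with DESeq2 (log2 2.79, adjusted p = 0.17). Single cells of day 3 had similar means of 2.97 ± 3.116 CPM (SD, n = 18) on the control side and 2.84 ± 3.63 CPM (SD, n = 41) on the SNT side. At day 7 the means were 7.35 ± 4.70 CPM (SD, n = 14) and 10.1 ± 8.16 CPM (SD, n = 33), and 4 of 14 and 15 of 33 cells reached 10 CPM. The correlation of Clcn2 with Nefh, the heavy neurofilament of large neurons, was 0.54 and 0.62 on the control and SNT sides at day 3 and 0.39 and 0.12 at day 7. At day 7, 9 of the 15 SNT-side cells at 10 CPM also held 10 CPM of Ano1. Its gene overlaps Fam131a and Polr2h on the opposite strand, whose reads cannot be told apart where strand was not used.

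Best1 (chr19:9985174-10001633, minus strand, 12 exons), a calcium-activated chloride channel first known from the retinal pigment epithelium, was low everywhere. The control pools read 4.13, 3.58 and 3.55 CPM and the SNT pools 2.39, 0 and 0.998 CPM, without overlap but on 8 and 6 counts in all. The log2 change of -1.40 (SE 1.10) was not called (adjusted p = 0.39). Cells had means of 1.92 and 0.976 CPM on the control and SNT sides at day 3, and 3.95 and 1.497 CPM at day 7. A single cell in each of 2 groups and 2 cells in another reached 10 CPM, and no SNT-side cell of day 3 did (0 of 41, which allows a share of up to 7.317% by the limit of 3 cells and 8.6% by the exact interval).

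The endosomal exchangers Clcn3 (chr8:60910389-60983300, minus strand, 12 exons) and Clcn6 (chr4:148004259-148038821, minus strand, 23 exons) were present in every kept cell at similar levels on both sides. Clcn3 read 166, 117 and 151 CPM in the control pools and 127, 138 and 107 CPM in the SNT pools, and its log2 change was -0.06 (SE 0.18, adjusted p = 0.85). Clcn6 read 103, 132 and 83.4 CPM and then 100, 108 and 108 CPM, and its log2 change was 0.13 (SE 0.19, adjusted p = 0.69). The sides of both genes overlapped, and the sign of these changes turned under some alternatives given below. The lowest cell of any group held 57.4 CPM of Clcn3 and 37.9 CPM of Clcn6. Clcn3 had means of 151 ± 35.9 CPM (SD, n = 18) and 159 ± 41.03 CPM (SD, n = 41) at day 3, and 170 ± 45.7 CPM (SD, n = 14) and 156 ± 51.1 CPM (SD, n = 33) at day 7. Clcn6 had means of 85.5 ± 30.1 and 111 ± 45.9 CPM at day 3, where 9 of 41 SNT-side cells exceeded the control-side range and 1 lay below it. At day 7 its means were 87.5 ± 18.1 and 76.7 ± 24.6 CPM, with 7 of 33 SNT-side cells below that range and 1 above. Clcn6 was lower where Nefh was higher in all 4 groups of cells, with correlations of -0.44 and -0.56 at day 3 and -0.75 and -0.33 at day 7 on the control and SNT sides.

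**Figure D4:**
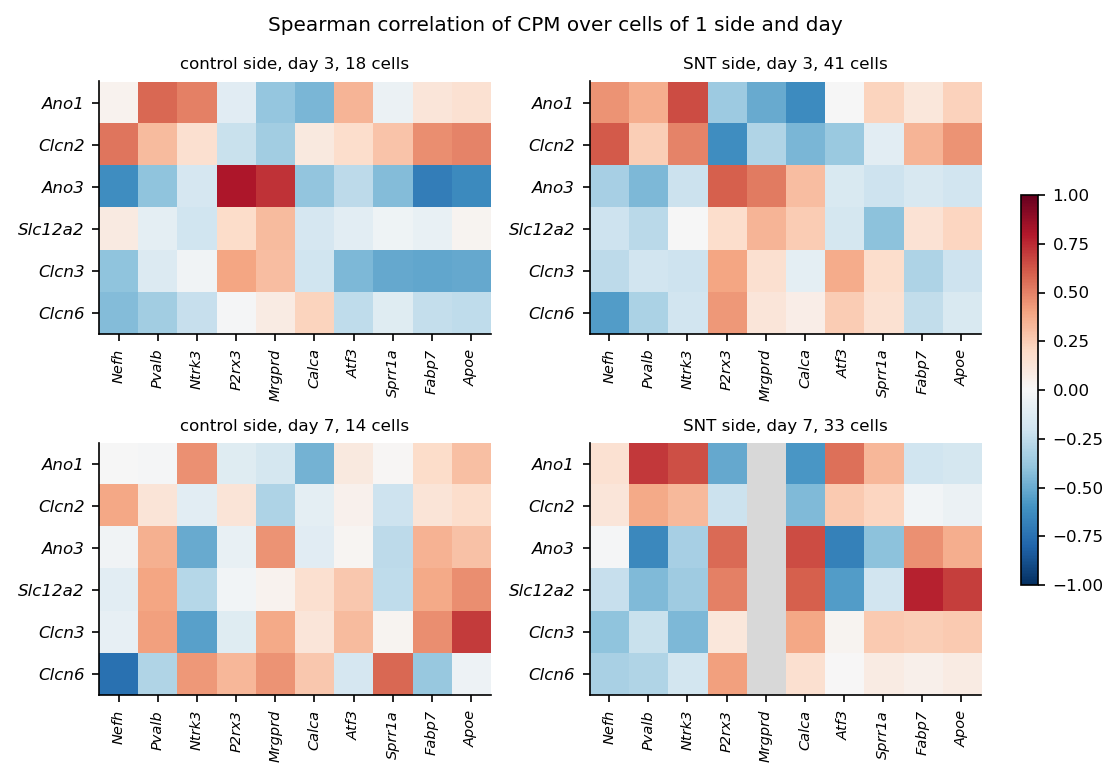
Spearman correlation (colour, from -1 to 1) of 6 genes with marker genes of LM (Nefh, Pvalb, Ntrk3), NP (P2rx3, Mrgprd), PEP (Calca), injury (Atf3, Sprr1a) and glia (Fabp7, Apoe), over the cells of each side and day. Ano1 was positive with Ntrk3 in all 4 groups, and Mrgprd was 0 in every day-7 SNT-side cell, so its column there is grey.

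Levels of the 8 genes can be ordered when divided by the length of the transcript. In control pools Ano3 led at 65.7 ± 12.4 CPM per kb (SD, n = 3), above Clcn6 at 32.1 ± 7.44 and Clcn3 at 25.4 ± 4.42 CPM per kb, which did not differ beyond their spread. Slc12a2 followed at 13.2 ± 3.88 CPM per kb, and then Best1 (1.803 ± 0.156), Ano1 (1.23 ± 1.81) and Clcn2 (0.293 ± 0.508). The wide spread of Ano1 covered the means of Best1 and Clcn2, whose own spreads did not touch. In SNT pools the order was Clcn6 (31.9 ± 1.30 CPM per kb), Clcn3 (21.9 ± 2.83), Ano1 (11.3 ± 1.90), Ano3 (8.45 ± 0.365), Slc12a2 (4.15 ± 1.14), Clcn2 (1.87 ± 1.04) and Best1 (0.543 ± 0.577), with Slc12a5 last on both sides. Ano1 thus stood above Ano3 in SNT pools, by a gap larger than the SD of either.

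The genes whose levels followed each member most closely were read over the 59 kept cells of day 3, among 9277 genes with at least 10 CPM, and then over the 47 cells of day 7. For Ano1 they were Slc7a14 (Spearman 0.70, and 0.55 at day 7), Tcf4 (0.69 and 0.30) and Flt3 (0.69 and 0.40). For Ano3 they were Gabbr1 (0.76 and 0.58), Ebf3 (0.76 and 0.65) and Htr4 (0.75 and 0.39). Both sets thus kept the sign at day 7. For Slc12a2 they were Dnajc3 (0.68 and 0.22), Igf1r (0.68 and 0.23) and Gpm6a (0.67 and 0.62). Clcn3 was most like Rragd (0.62 and 0.27) and Stam2 (0.59 and 0.27), and Clcn6 most like Lin7c (0.72 and 0.10) and Mapre1 (0.67 and 0.06). For these exchangers the likeness of day 3 was weaker at day 7 for each of the 4 genes. The correlations of day 3 mix both sides and the cell types.

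Of 48 other genes of chloride transport, 33 were tested in the pools, of which 6 were called higher, 5 lower and 22 not called, beside 8.85% higher and 7.1% lower of all genes tested, with a median log2 change of 0.46 beside 0.02 for all genes. Of the other anoctamins, 4 of 5 tested were called higher and none lower, a count that was not tested as a group. Ano6, a calcium-activated lipid scramblase, rose by a log2 of 1.801 (SE 0.16), Ano4 by 1.43 (SE 0.23) and Ano10 by 1.24 (SE 0.21). Ano7 was called at 3.799 (SE 1.10) on 1 control-side count and 36 SNT-side counts, a ratio of 15.9 with a counting interval of 2.68 to 645. Ano8 was the fifth, at 2 and 8 counts. Between the pools Ano3 thus fell while 5 of its relatives were called higher, Ano1 included. In cells Ano4, Ano6 and Ano10 were within 2-fold on both days. Their log2 ratios were 0.98, 0.72 and 0.60 at day 3, and 0.15, 0.68 and 0.13 at day 7. Ano7 was under 10 CPM on both sides on each day.

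Among cotransporters and their kinases, the potassium-chloride cotransporter Slc12a4 fell (log2 -1.56, SE 0.46) and the other 3 tested were not called. All 6 kinases that act on them were not called in pools. In cells, Slc12a7, another potassium-chloride cotransporter, went from 18.9 to 6.91 CPM in mean at day 3 (log2 -1.33), while the ratio of its medians pointed the other way (0.74). Stk39 (SPAK), a kinase that activates Slc12a2, went from 108 to 230 CPM at day 7 (log2 1.09, with 1.44 in female and 0.60 in male cells). Wnk3, which acts upstream of Stk39, went from 4.57 to 13.5 CPM at day 7 (log2 1.38, with 2.31 in female and 0.31 in male cells). These 3 genes are descriptions of 1 sample per side.

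The chloride-bicarbonate exchangers Slc4a8, a sodium-driven exchanger, and Slc4a2 rose by 2.61 (SE 0.25) and 1.62 (SE 0.23) on the log2 scale in pools. Slc4a8 was also past 2-fold in cells of both days, from 28.3 to 104 CPM at day 3 and from 45.1 to 126 CPM at day 7, where the log2 ratio of medians was 0.69. Slc4a2 went from 25.2 to 58.7 CPM at day 3 and from 91.5 to 104 CPM at day 7. Of the 4 tested subunits of the volume-regulated anion channel 2 fell, Lrrc8d (log2 -1.38, SE 0.25) and Lrrc8b (log2 -1.19, SE 0.36), and Lrrc8a, which every such channel needs, was not called. In cells Lrrc8d went from 132 to 60.05 CPM at day 3 (log2 -1.13), and Lrrc8c from 79.5 to 31.7 CPM at day 7 (log2 -1.30). Ttyh1, a tweety family member (log2 -1.72, SE 0.27), and Hepacam (GlialCAM), a partner of Clcn2 in glia (log2 -1.12, SE 0.42), fell beside the fall of the glial genes given above. In cells 2 of 25 such genes with 10 CPM were past 2-fold upward and 2 downward at day 3, beside 5.82% and 6.07% of all genes, and 3 and 1 of 29 at day 7, beside 4.45% and 3.2%. The counts of day 3 lay near these shares.

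**Figure D5:**
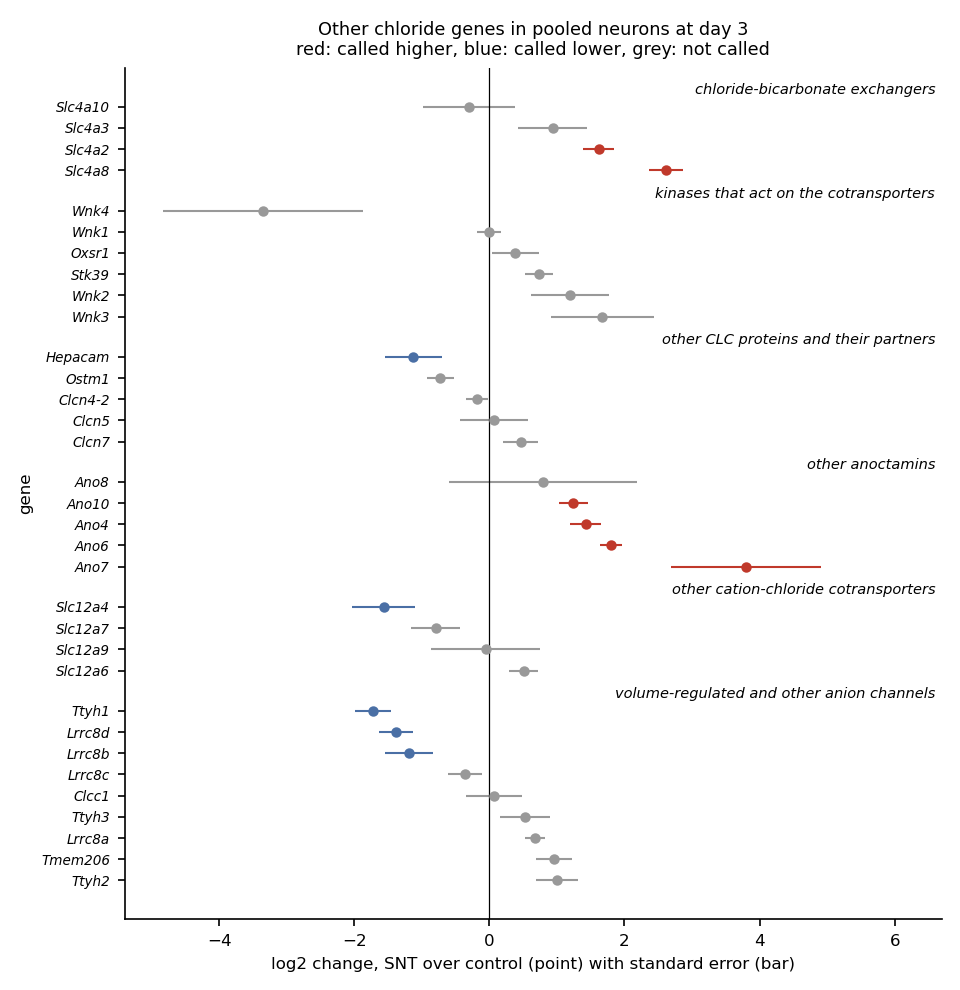
Log2 change of SNT over control (point) with its standard error (bar) for the 33 other chloride genes tested in pools at day 3, grouped by family. The anoctamins Ano4, Ano6, Ano7 and Ano10 and the exchangers Slc4a2 and Slc4a8 were called higher (red), and Slc12a4, Lrrc8b, Lrrc8d, Ttyh1 and Hepacam lower (blue).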

How the data were processed

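Neurons were picked from dissociated DRGs and their cDNA made by Smart-seq2, which has no molecular identifiers, for 117 single cells (106 kept) and 6 pooled libraries. The authors removed 11 outlier cells. Reads were aligned by the authors with bowtie2, and RSEM gave the estimates on mm9 RefSeq exons without ribosomal RNA. They deposited expected counts per gene, under the name TPM: library totals ranged from 223967 to 2003817 and 60.7% to 93.6% of values above 0 were whole. Sides and days follow titles and column names. For cells placed at day 7 the protocol label names both days, and the source label of the pooled libraries calls all 6 intact. The methods give 50 neurons per pooled side, the series text 106.

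CPM is the value divided by the column sum, times 1e6. Pooled counts were rounded, a gene needed a mean of 1 CPM, and edgeR 4.0.16 (TMM, quasi-likelihood, R 4.3.3) fitted over all genes. The test was checked on simulated data. DESeq2 1.42.0 and limma 3.58.1 were alternatives. Cells were described with Python 3.11.15 and scipy 1.17.1 by means, SD, ranges, log2 ratios of mean CPM + 1 and shares at 10 CPM with exact (Clopper-Pearson) 95% intervals. A fold in cells was read where the higher side had 10 CPM. Intervals cover counting error only. Members, lists and markers were chosen with earlier results of these data known. Named are the members, other chloride genes called in pools or past 2-fold in cells, markers set beside a result, and for each member with 10 CPM the 3 genes most correlated over day-3 cells, and some genes under this rule are not reported here. 1 listed gene was found under another symbol (Hepacam). Lengths are those of the longest RefSeq-linked GENCODE transcript, and whether counting used strand is not given in the sources used here. Ano1, Ano3, Clcn2 and Clcn6 overlap genes of the opposite strand. No doublets were searched for.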

Additional observations from a re-analysis of the deposited data

How the results depend on the processing

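In the pooled libraries the 3 calls among the members held under all 14 alternatives, which gave 3 or 4 calls, and other chloride genes gave 9 to 12 against 11. All genes called numbered 1649 (mean of at least 10 CPM) to 2244 (library size alone) against 2157. Leaving out 1 library gave 3 to 4 members. With the library number as a replicate block 2009 genes, 3 members and 12 other chloride genes were called, and no member changed its call. Same-numbered libraries did not deviate together (correlations 0.07, -0.01 and -0.01). Scaling by library size alone moved the median of all genes from 0.02 to -0.14. Clcn6 then read -0.0286. Leaving out 1 library moved Clcn6 between -0.0059 (control library 3) and 0.321 (control library 2), and Clcn3 between -0.211 (control library 2) and 0.0449 (control library 1), with 0.0391 without SNT library 3, and neither gene was called. In cells, medians in place of means put 1 member past 2-fold at day 3 (Ano3, with Ano1 at 0.72) against 2. At day 7 medians put 1 member past 2-fold, as means did, but it was Ano3, lower (log2 -1.15), in place of Ano1. The medians of Ano1 were under 10 CPM on both sides. Female cells alone put 2 members past 2-fold at day 7 against 1. The causes were not tested. Thinning each cell to 200000 counts gave the same numbers of members. Depth limits Slc12a5, Best1 and Clcn2, which rest on few counts in pools.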
